A study of Mus musculus with 6 samples.

Results

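Transcripts of 9 genes of the Notch pathway were followed in 6 RNA-seq libraries from primary mouse cells whose label is renal fibroblasts: the receptors Notch1, Notch2 and Notch3, the ligands Jag1, Jag2 and Dll1, and the target genes Hes1, Hey1 and Heyl. They were taken from a deposited table of 22274 genes by symbol, and each of the 9 had 1 row. In 3 libraries the cells carried the WT label and siRNA of scrambled sequence (control), and in 3 they carried a knockdown label and siRNA against Prune2. All 6 were given TGF-β, which activates fibroblasts, at 5 ng/ml for 48 h, so the response to TGF-β itself has no comparison here. Age, sex and strain of the mice were not among the labels, and nothing there says whether the 3 libraries of a group came from separate isolations or cultures, so p-values measure the spread between libraries, which may be technical.

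Notch signalling passes between touching cells. A transmembrane ligand of the Jagged or Delta family on one cell binds a Notch receptor on its neighbour, an ADAM protease and then γ-secretase cut the receptor, and the freed intracellular domain enters the nucleus, where it joins the DNA-binding protein RBPJ and a Mastermind coactivator. Several HES and HEY genes, which encode basic helix-loop-helix repressors, are its standard targets. In the kidney the pathway patterns the developing nephron, and its reactivation in injured tubules is known to promote fibrosis.

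Library totals ran from 20075265 to 23234797 counts. Prune2, the gene targeted by the siRNA, had 6.49, 7.85 and 6.52 CPM (counts scaled to library size) with control siRNA, against 3.78, 3.19 and 4.44 CPM in the knockdown libraries. Prune2 thus fell by 45.2% (log2 fold change -0.87, SE 0.15, adjusted p = 0.000214). Its mean of deposited FPKM, values scaled to length and depth, went from 1.18 to 0.847 (a change of -28.2%), for which the authors' deposited table gives a log2 fold change of -0.48 and an adjusted p of 0.000249. Limma on log2(FPKM + 1) gave Prune2 -0.24 without a call (adjusted p = 0.18). The transcript length implied by its count and FPKM was 5711 to 6029 bases in controls and 3876 to 4865 bases in knockdown libraries, so the size of the fall depends on the scale. Unless a sentence names another tool, every adjusted p comes from the quasi-likelihood test of edgeR over 13248 genes. Called means an adjusted p under 0.05, and each fold change sets Prune2 siRNA over the control. Markers of the labelled cell type were mixed. Of 11 fibroblast markers, Dcn, Lum, Thy1 and S100a4 were under 1 CPM in the mean of either group, whereas in controls the matrix gene Fn1 averaged 26295 CPM, Vim 570.0 CPM and the collagen gene Col1a1 236 CPM. The epithelial keratin Krt8 stood at 1181 FPKM and the epithelial adhesion gene Epcam at 246 FPKM over the 6 libraries. On that FPKM scale Fn1 averaged 2882, Vim 221 and Col1a1 37.1. The tubular genes Aqp2, Slc12a1 and Umod averaged 0, 0.408 and 1.38 CPM in controls.

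With Prune2 siRNA the Jagged ligand Jag1 fell, and no receptor and no HES or HEY target among the 9 genes was called in either direction. Of the 9 members, all of which passed the filter on low counts, 1 was called lower and 0 higher. Among all tested genes 5.83% were called lower, 4.46% higher and 10.3% in either direction, so the share of members called (11.1%) was near the background. The median log2 fold change was 0.09 over the members and 0.00 over all tested genes. At an unadjusted p under 0.05 there were 5 members (20% of all tested genes), and DESeq2 and limma-voom also called 1 each. The groups did not overlap in CPM for 3 members (Jag1, Notch3 and Hey1), where 24.3% of tested genes behaved so.

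The sequence upstream of Jag1 is shown because it is the called member, beside that of Dll1, the other ligand with a sizeable level. Promoter windows of RefSeq (build GRCm38.p6) were found for 6 of the 9 genes by symbol, 7 windows in all since Dll1 has a pair of start sites. Hes1, Hey1 and Heyl were not among them. Each line is written 5′ to 3′ on the minus strand, and capitals mark CAGAC, the short SMAD-binding element, on either strand, and in Dll1 also TGANTCA, the AP-1 element. For Jag1, chr2:137116645-137116770, the 126 bases end where the GENCODE M21 transcript of Jag1 begins, and their last base lies 125 bases before the RefSeq start site. For Dll1, chr17:15376933-15377182, the 250 bases end at the outer RefSeq start site.
Jag1: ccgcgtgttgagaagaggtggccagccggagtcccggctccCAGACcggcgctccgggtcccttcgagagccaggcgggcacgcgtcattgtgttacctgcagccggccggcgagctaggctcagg
Dll1: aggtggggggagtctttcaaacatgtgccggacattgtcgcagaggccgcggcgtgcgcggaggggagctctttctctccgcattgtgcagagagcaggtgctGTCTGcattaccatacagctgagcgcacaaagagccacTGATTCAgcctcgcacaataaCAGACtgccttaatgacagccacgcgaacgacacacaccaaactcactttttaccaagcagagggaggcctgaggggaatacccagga
CAGAC on either strand occurs in 42.2% of the 32851 RefSeq windows of 250 bases, and TGANTCA occurs in 6.75%. The RBPJ core GTGGGAA, searched on both strands, was in none of the 7 windows and is in 5.42% of all windows. A match is a description of letters, and no binding was measured.

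Per length, the 9 transcripts spanned from under 1 to over 200 FPKM, with Jag1 first. Jag1 (ENSMUSG00000027276, chromosome 2, 137081456 to 137116644, minus strand of GRCm38) lay between 195.13 and 247.13 FPKM, and only 1.67% of tested genes had a higher mean. Hes1, the widely used readout of Notch activity, followed at 30.78 to 33.29 FPKM, and then Dll1, a Delta-family ligand, at 16.91 to 20.28 FPKM. Notch2 led the receptors at 15.36 to 18.3 FPKM, ahead of Notch1 at 3.81 to 4.65 FPKM and Notch3, the receptor known from vascular mural cells, at 1.95 to 2.53 FPKM. The ranges of Dll1 and Notch2 over the 6 libraries overlapped, although Dll1 was the higher in each of the 6. Heyl, Hey1 and Jag2 closed the order at 0.46 to 0.66, 0.31 to 0.72 and 0.3 to 0.53 FPKM. Their ranges overlapped, and Heyl exceeded Hey1 in 4 of 6 libraries, so the order among these 3 was not resolved.

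**Figure D1:**
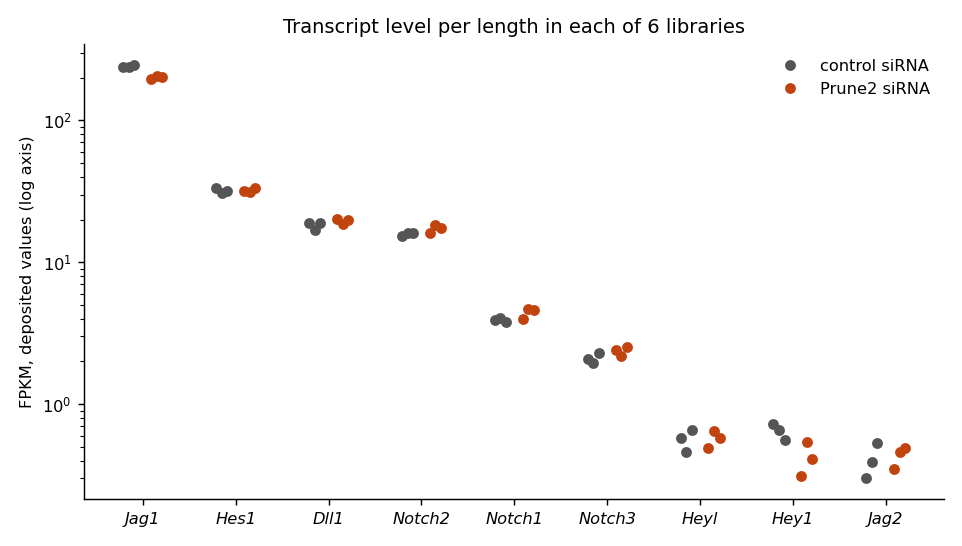
Deposited FPKM (log axis) of the 9 genes in each of the 6 libraries, with grey points for control siRNA and orange for Prune2 siRNA, ordered by mean. Jag1 lies between 195.13 and 247.13 FPKM in the 6 libraries, while Heyl, Hey1 and Jag2 stay under 1 FPKM.

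Among the ligands, Jag1 had 1337, 1349 and 1388 CPM in the controls and 1092, 1153 and 1131 CPM with Prune2 siRNA. Every knockdown library was below every control library, and the gap between the groups was wider than the range within either. Behind these values lay 86299 summed counts in the controls and 76046 with Prune2 siRNA. Jag1 fell by 17.1% (95% interval of the change -21.2% to -12.9%), a log2 fold change of -0.27 (SE 0.04, adjusted p = 3.58e-06). An exact permutation test on its 6 values (two-sided) gave p = 0.1, the smallest that 3 libraries against 3 allow. Jag1 was called in all 16 alternative fits, with a log2 fold change between -0.29 and -0.25 and an adjusted p between 1.25e-16 and 0.00714 over edgeR, DESeq2, limma-voom and limma. The authors' deposited table gives Jag1 a log2 fold change of -0.26 and an adjusted p of 1.41e-16, and 4.64% of its genes have an adjusted p under 0.05. Of the 1364 genes called here, 61.1% had a larger change than Jag1.

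Dll1 did not fall with Jag1. It stood at 68.1, 60.2 and 68.2 CPM in the controls and 72.4, 66.3 and 70.5 CPM with Prune2 siRNA, and the groups overlapped (log2 fold change 0.09, 95% interval -0.02 to 0.20, adjusted p = 0.38). The ratio of Jag1 to Dll1 in FPKM, which compares the ligands within a library, was 12.5, 14.2 and 13.0 in the controls and 9.62, 11.1 and 10.2 with Prune2 siRNA. Its groups did not overlap, at 13.2 ± 0.841 and 10.3 ± 0.740 (SD, n = 3). An exact two-sided permutation test gave p = 0.1, the smallest possible. Jag1 alone already separated the groups in FPKM, so this ratio is not a result independent of Jag1. Jag2, the second Jagged ligand, was low, with 29, 40 and 30 counts in the controls and 29, 42 and 43 with Prune2 siRNA. Its interval was wide (log2 fold change 0.11, 95% interval -0.43 to 0.65, adjusted p = 0.886), so a change of the size seen in Jag1 could not be detected at this depth. The transcript length implied by its deposited count and FPKM ran from 2457 to 5109 bases between control libraries, so the Jag2 level per length is uncertain.

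As a share of the summed FPKM of the 3 ligands, Jag1 made up 92.5%, 93.3% and 92.7% in the controls and 90.4%, 91.5% and 90.9% with Prune2 siRNA. The Dll1 share was 7.38%, 6.59% and 7.13% against 9.40%, 8.25% and 8.88%. Dll4, a further ligand, is not in that sum. With Dll4 included, the Jag1 share was 90.1%, 90.9% and 90.0% in the controls and 88.9%, 89.9% and 88.9% with Prune2 siRNA. Jag1, Jag2 and Dll1 together summed to 260.0 ± 6.0 FPKM in the controls and 221 ± 4.59 FPKM with Prune2 siRNA (SD, n = 3).

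Notch1, Notch2 and Notch3 had higher means with Prune2 siRNA, by amounts that missed the threshold, whereas Notch4, described below, was called lower. Notch1 (chromosome 2, 26457903 to 26516663) had 37.5, 38.2 and 36.2 CPM in the controls and 37.7, 44.2 and 43.3 CPM with Prune2 siRNA. Knockdown replicate 1 lay among the controls and the other two above them (log2 fold change 0.17, 95% interval 0.04 to 0.29, adjusted p = 0.0985). Notch2 (chromosome 3, 98013527 to 98150361) stood at 162, 170.0 and 168 CPM against 168, 193 and 180.0 CPM. Again replicate 1 of the knockdown lay within the control range (log2 fold change 0.11, 95% interval 0.02 to 0.20, adjusted p = 0.111). Notch3 (chromosome 17, 32120820 to 32166852) stood at 16.8, 15.6 and 16.9 CPM in the controls and 19.3, 17.5 and 20.1 CPM with Prune2 siRNA, without overlap (log2 fold change 0.20, 95% interval 0.04 to 0.37, adjusted p = 0.116). In deposited FPKM the Notch3 groups did overlap, since control replicate 3 was at 2.28 and knockdown replicate 2 at 2.18 FPKM. Its implied length was 7407 bases in that control library against up to 8025 in the others.

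The calls of Notch1 and Notch2 depended on knockdown replicate 1. Without knockdown replicate 1, edgeR called Notch1 (log2 fold change 0.23, adjusted p = 0.0143) and Notch2 (0.16, adjusted p = 0.0146). Over the 16 alternatives the adjusted p ran from 0.0143 to 0.487 for Notch1, from 0.0146 to 0.444 for Notch2 and from 0.0558 to 0.577 for Notch3. No other alternative called Notch1, Notch2 or Notch3. Notch3 came nearest to a call without knockdown replicate 2 (log2 fold change 0.26, adjusted p = 0.0558), where Notch2 was at 0.06 (adjusted p = 0.444). After adjustment edgeR, DESeq2 and limma-voom each called 0 of these 3 receptors, where edgeR called 10.3% of all tested genes. At an unadjusted p under 0.05 edgeR had 3, beside 20% of all tested genes.

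Among Notch1, Notch2 and Notch3, with Notch4 left out, the shares differed little between the groups. Notch2 held 72.4% ± 0.532 of the summed FPKM of the 3 receptors in controls and 71.7% ± 1.02 with Prune2 siRNA (SD, n = 3). Notch1 held 17.9% ± 0.603 and 18.4% ± 0.541, and Notch3 held 9.63% ± 0.751 and 9.92% ± 1.10 (SD, n = 3). Each difference was smaller than the larger of the SDs of its groups. With Notch4 included this did not hold: Notch4 itself held 9.15%, 9.50% and 10.8% of the sum in controls and 6.58%, 4.92% and 6.61% with Prune2 siRNA, without overlap, and Notch2 went from 65.3% ± 0.702 to 67.4% ± 1.64 (SD, n = 3). Set against the ligand, the FPKM ratio of Notch2 to Jag1 was 0.0649, 0.0673 and 0.0648 in the controls and 0.0823, 0.0892 and 0.0852 with Prune2 siRNA. Those groups did not overlap (exact two-sided permutation p = 0.1, the smallest possible). Jag1 alone already separated the groups in FPKM, at 236.67 to 247.13 in controls against 195.13 to 205.05. The ratio of Notch2 to Jag1 is therefore not a result independent of Jag1.

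**Figure D2:**
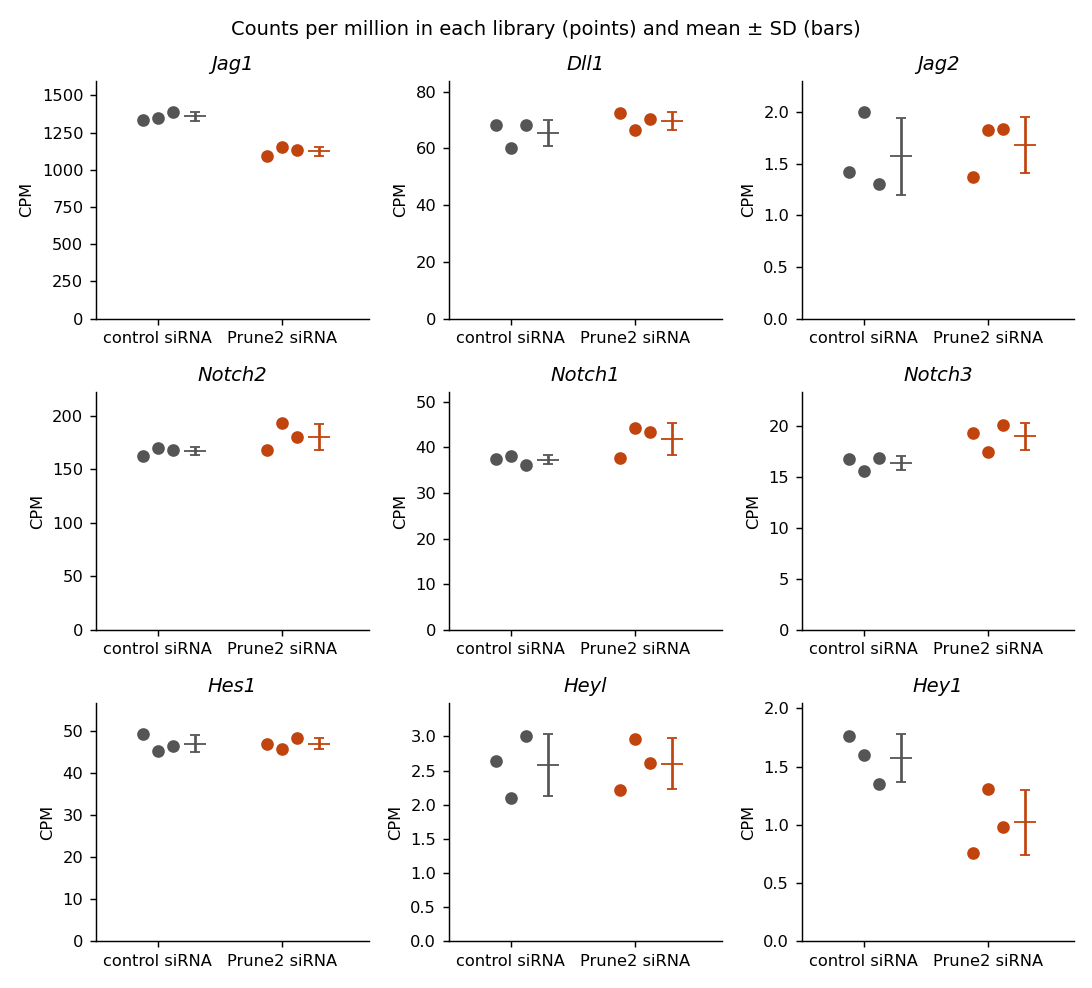
CPM of each gene in the 3 control (grey) and 3 Prune2 siRNA (orange) libraries, in replicate order from left to right, with mean ± SD as bars and every axis starting at 0. Jag1 has 1092 to 1153 CPM with Prune2 siRNA, below the controls at 1337 to 1388 CPM, while Hes1 keeps one range in both groups.

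Of the target genes, Hes1 (chromosome 16, 30064384 to 30067796) was centred on no change. It stood at 49.2, 45.3 and 46.5 CPM in the controls and 46.8, 45.7 and 48.3 CPM with Prune2 siRNA. The knockdown libraries lay inside the control range (log2 fold change 0.00, SE 0.05, adjusted p = 0.99). The 95% interval of the Hes1 change ran from -7.42% to 7.67%, which leaves out a fall as large as the 17.1% of Jag1. Heyl, a HEY-family repressor, had 54, 42 and 69 counts in the controls and 47, 68 and 61 with Prune2 siRNA, which overlap (log2 fold change 0.01, 95% interval -0.43 to 0.44, adjusted p = 0.991).

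Hey1, known as a direct target of Notch and of TGF-β family signals, was low, and none of the 9 genes had a more negative log2 fold change. It had 36, 32 and 31 counts in the controls and 16, 30 and 23 with Prune2 siRNA, or 1.76, 1.6 and 1.35 CPM against 0.755, 1.31 and 0.982 CPM. All knockdown values were below all control values, by a narrow gap between control replicate 3 and knockdown replicate 2. The log2 fold change of -0.61 (95% interval -1.21 to -0.02) missed the threshold (adjusted p = 0.231), as it did in all 16 alternatives (adjusted p from 0.143 to 0.528). With 99 summed counts against 69, the depth limits what can be said of Hey1.

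**Figure D3:**
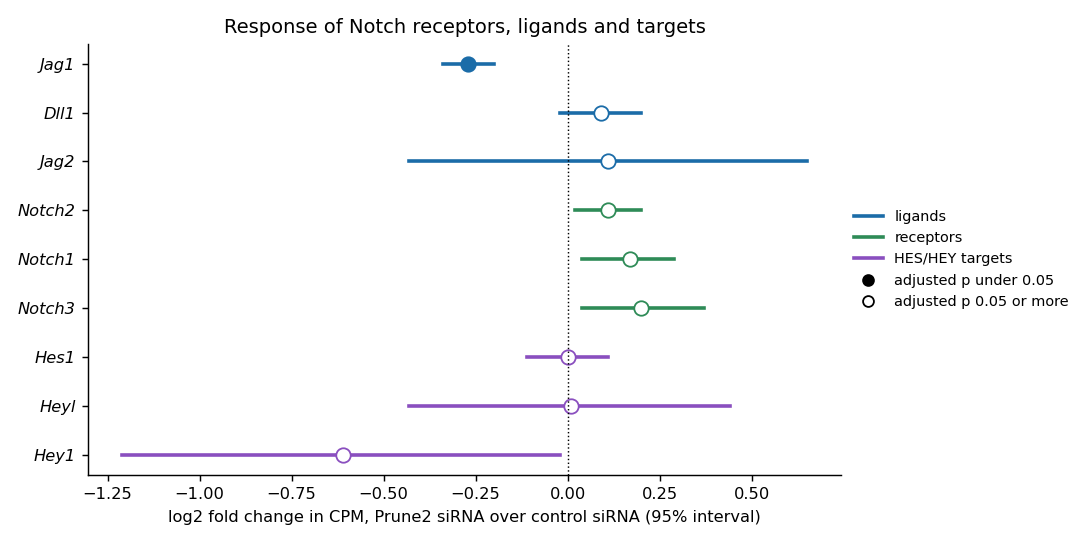
Log2 fold change in CPM, Prune2 siRNA over control siRNA, with 95% intervals from edgeR for ligands (blue), receptors (green) and HES/HEY targets (purple); filled points passed an adjusted p of 0.05. Only Jag1, at -0.27, is filled, and Jag2, Heyl and Hey1 have the widest intervals.

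Among the other genes of the pathway, those called lower were a further ligand, a further receptor and a pair of Fringe glycosyltransferases, and the one called higher was a Deltex. Of 64 listed genes 54 were tested, and 4 were lower and 1 higher (9.26% called, beside 10.3% of all tested genes), with a median log2 fold change of -0.02. Dll4, a Delta ligand best known from endothelium, stood at 25.5, 24.9 and 29.2 CPM in the controls and 14.3, 15.1 and 18.2 CPM with Prune2 siRNA. Its groups were well apart (log2 fold change -0.74, SE 0.09, adjusted p = 6.82e-07), and it was called in all 16 alternatives. Notch4, the receptor characteristic of endothelium, stood at 14.2, 15.3 and 13.7 CPM against 9.72, 8.55 and 11.3 CPM (log2 fold change -0.55, SE 0.10, adjusted p = 0.000454). Notch4 lost its call only with limma on unfiltered log2(FPKM + 1) (adjusted p = 0.0835).

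Fringe enzymes add sugars to Notch receptors and so change which ligands they answer to. Lfng stood at 19.5, 19.3 and 19.1 CPM in the controls and 15.7, 13.1 and 16.5 CPM with Prune2 siRNA, without overlap (log2 fold change -0.35, adjusted p = 0.00586). It was called in 12 of 16 alternatives and not without knockdown replicate 2 (adjusted p = 0.0554). Mfng rested on 41 summed counts against 15 (log2 fold change -1.52, adjusted p = 0.0352) and was called in 5 of 13 alternatives. Its call was lost with DESeq2 (adjusted p = 0.183), with no filter on low counts (0.0703) and with a replicate block (0.0537). It was also lost without control replicate 1 (adjusted p = 0.0773) or 2 (0.166), or without knockdown replicate 1 (0.115), 2 (0.125) or 3 (0.0602), with 0.0323 to 0.183 over the 13. Rfng, the third Fringe, had a log2 fold change of 0.03 (adjusted p = 0.932). Dtx3l, an interferon-induced ubiquitin ligase of the Deltex family, rose from 44.0, 47.7 and 41.9 CPM to 61.7, 59.3 and 51.6 CPM (log2 fold change 0.37, adjusted p = 0.000142), and lost its call only with limma on unfiltered log2(FPKM + 1) (adjusted p = 0.0795).

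No gene of the nuclear complex or of the receptor-cleaving proteases was called, beside 10.3% of all tested genes. Of 9 genes of the nuclear complex 0 were called by edgeR, DESeq2 or limma-voom, with 1 at an unadjusted p under 0.05 (20% of all tested genes). Rbpj, the DNA-binding partner, had a log2 fold change of 0.01 (SE 0.04), and Snw1, the most abundant of the class per length at 37.6 FPKM, had 0.11 (adjusted p = 0.17). Of 12 corepressors 0 were called by the same 3 tools, with 0 at an unadjusted p under 0.05. Of 10 receptor-cleaving proteases 0 were called by these tools and 2 had an unadjusted p under 0.05. Furin, the convertase that first cuts the receptor, led the class at 92.8 FPKM with a log2 fold change of -0.09 (adjusted p = 0.151).

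Further HES/HEY genes and other targets likewise had no call. Of 3 tested, 0 were called by edgeR, DESeq2 or limma-voom and 1 had an unadjusted p under 0.05 (20% of all tested genes). That gene was Nrarp, a feedback inhibitor of Notch, at 7.52, 7.05 and 8.34 CPM in the controls and 5.95, 6.37 and 5.94 CPM with Prune2 siRNA. Its groups did not overlap, and its log2 fold change of -0.33 missed the threshold (adjusted p = 0.0983). It is named here because of these values. Hes6, the most abundant gene of this class at 14.5 FPKM, had a log2 fold change of 0.04 (adjusted p = 0.825). Among glycosylation genes Pofut2 was the most abundant (log2 fold change -0.07, adjusted p = 0.438), and among 12 tested ubiquitination and trafficking genes, of which Dtx3l was called, it was Itch (-0.06, adjusted p = 0.44).

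**Figure D4:**
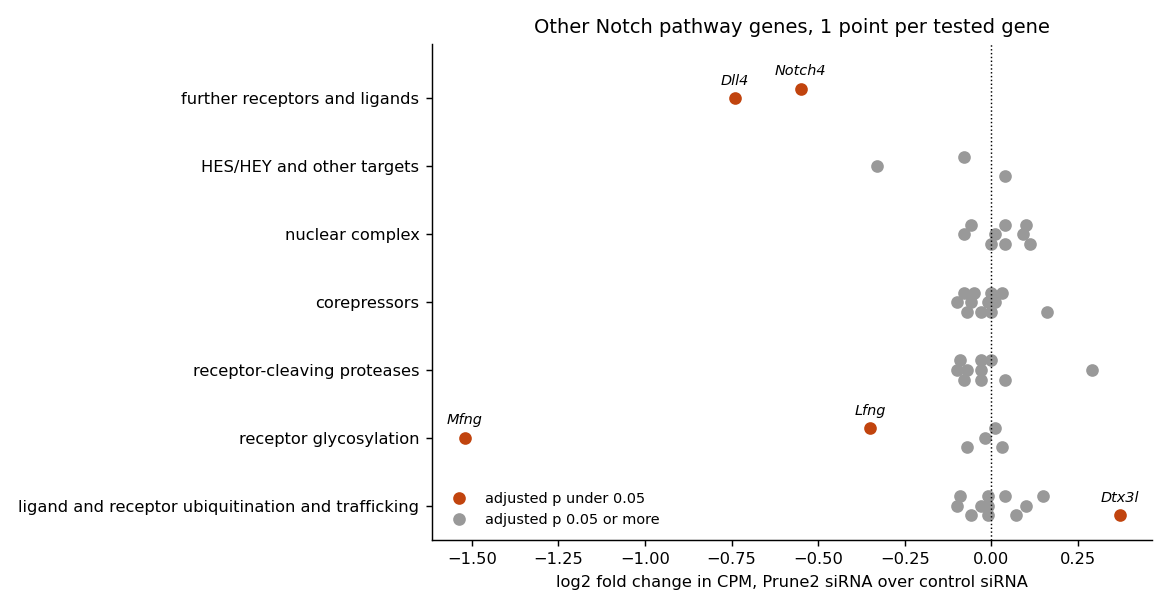
Log2 fold change in CPM of the 54 tested other pathway genes, 1 point each, by class; orange points passed an adjusted p of 0.05. Dll4 (-0.74), Notch4 (-0.55), Lfng (-0.35), Mfng (-1.52) and Dtx3l (0.37) are the called genes, and the 3 classes of nuclear complex, corepressors and proteases have none.

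Markers of other cell types moved in the same libraries, and their part in the values of Jag1, Dll4, Notch4, Lfng and Mfng was not tested. In bulk RNA, fewer cells of a type and less RNA per cell cannot be told apart. The counts of called markers below stand beside 5.83% of all tested genes called lower and 4.46% called higher. Of 14 endothelial markers 7 were lower and 0 higher (median log2 fold change -0.47). Summed they stood at 155 to 170.0 CPM in controls and 116 to 122 CPM with Prune2 siRNA, with none at 0. Cdh5, the endothelial cadherin, had a log2 fold change of -0.50, while Egfl7 (0.04) and Sox17 (0.48) had positive values without a call. Of 12 leukocyte markers 11 were lower and 0 higher, and their sum went from between 156 and 191 CPM to between 44.5 and 45.6 CPM, with none at 0. Of 13 tubular markers 11 were tested, with 4 higher and 2 lower, and their sum was 5858 to 6011 CPM against 5432 to 5897 CPM. Without Krt8, the highest of them, the sums overlapped (3495 to 3544 CPM against 3369 to 3563 CPM). The collecting duct channel Aqp2 was at 0 in all 6 libraries. Of 9 mural markers, Notch3 left out, 7 were tested and 4 were lower, with sums of 1054 to 1111 CPM against 887 to 949 CPM. Without Acta2, the highest of them, the sums were 367 to 381 CPM against 317 to 328 CPM. Kcnj8 and Abcc9 were under 1 CPM in either group. Of 11 fibroblast markers 9 were tested, 4 were lower and 0 higher, with sums of 26841 to 27427 CPM against 19210 to 21355 CPM. Fn1 made up most of that sum (26295 CPM in controls, 19429 CPM with Prune2 siRNA), and without it the sums were 915 to 954 CPM against 693 to 737 CPM. The median log2 fold change of the fibroblast list was -0.21, and Pdgfra (-0.04), Pdgfrb (0.07) and Col3a1 (-0.09) were not called.

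Among the 8917 genes compared, those whose pattern lay closest to that of Jag1 were Kit, Piezo2 and Dennd2a. Closeness was the root mean square distance between centred log2(CPM + 1) values over the 6 libraries. The genes compared had a mean of at least 10 CPM, and the distances were 0.023, 0.027 and 0.028. Kit, Piezo2 and Dennd2a were picked for matching Jag1 in these same libraries. A fold change near that of Jag1 therefore follows from the choice and is not a separate result. Kit, a receptor tyrosine kinase, stood at 13.2, 13.9 and 14.3 CPM in the controls and 10.9, 11.3 and 11.5 CPM with Prune2 siRNA. Its log2 fold change was -0.30 (adjusted p = 0.029), and it was called in 7 of 16 alternatives (adjusted p from 0.0237 to 0.23 over the 16). The call of Kit was lost with DESeq2 (adjusted p = 0.133) and with limma on FPKM (0.19, 0.207 and 0.23). It was also lost without control replicate 2 or 3 or any of the 3 knockdown replicates. Piezo2, a mechanically gated channel, had a log2 fold change of -0.30 (adjusted p = 1.6e-05), and Dennd2a one of -0.27 (adjusted p = 0.001).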

How the data were processed

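The authors deposited 1 table of read counts per gene, FPKM per library and group means of FPKM. It also holds the authors' log2 fold change and the authors' p-value and adjusted p-value. Per the submitters' processing notes the builds were GRCm38 and mm10; no aligner, counter, strand setting or test is given in the sources used here. Identifiers were matched to GENCODE M21 (22219 of 22274). The counts went into edgeR 4.0.16 (R 4.3.3; filterByExpr, TMM, glmQLFit, glmQLFTest, Benjamini-Hochberg over 13248 genes). CPM are counts over TMM-scaled library sizes, and an SE is the log2 fold change over the square root of F. Alternatives used RLE or upper-quartile scaling, DESeq2 1.42.0, limma-voom (limma 3.58.1), other filters, limma on log2(FPKM + 1) or log2(FPKM + 0.1), a replicate block, and each library left out. On simulated data over 13150 genes, 50 were changed 1.2-fold, 48 changed 1.5-fold, 49 changed 2-fold and 49 changed 4-fold. Of these 46%, 68.8%, 91.8% and 100% were recovered, and 3 of 153 calls were false. The share of genes changed there was smaller than the 10.3% called in the data, so these rates may not carry over. Replicates of a group differed by more than sampling noise (chi-square per degree of freedom 2.57 to 3.92). Genes named are Prune2, the 9 members, called pathway genes, the most abundant gene of each class and the 3 closest to Jag1; Nrarp, Rbpj, Rfng and the named markers were added. A gene that this rule names is not reported here. Members and lists were chosen with earlier results of these data known, and motifs after the values were seen.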

Additional observations from a re-analysis of the deposited data

How the results depend on the processing

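Jag1 stayed lower and called in all 16 alternatives, and the count of members called lower was 1 in each. Leaving out 1 library at a time gave 0 to 2 members higher, 1 to 2 other pathway genes higher and 2 to 5 lower, with 2 higher in each list without knockdown replicate 1 and 2 lower without knockdown replicate 2. The log2 fold changes then ran from 0.12 to 0.23 for Notch1, 0.06 to 0.16 for Notch2, 0.16 to 0.26 for Notch3, 0.03 to 0.13 for Dll1 (0.03 without control replicate 2), -0.02 to 0.31 for Jag2, -0.03 to 0.03 for Hes1, -0.84 to -0.45 for Hey1 and -0.12 to 0.13 for Heyl. Limma on log2(FPKM + 1), on log2(FPKM + 0.1) and on unfiltered log2(FPKM + 1) called 708, 705 and 593 genes in place of 1364, gave 2, 2 and 2 other pathway genes lower, 1, 1 and 0 higher, put Prune2 at -0.24, -0.43 and -0.24 without a call, and put Hes1 at 0.01 (Hey1 was at -0.22 with log2(FPKM + 1)); the cause was not tested. Jag2 fell below the FPKM filter and has no value in the filtered fits. With upper-quartile scaling Heyl was at 0.00, on the negative side before rounding. In CPM in place of FPKM, a change of scale that leaves out length, Notch1, Notch2 and Notch3 held 16.9%, 75.6% and 7.46% of receptor transcript in controls and 17.3%, 74.8% and 7.90% with Prune2 siRNA, and Jag1, Jag2 and Dll1 held 95.3%, 0.111% and 4.6% against 94.0%, 0.140% and 5.83% of ligand transcript. Sums that also held Notch4 or Dll4, chosen after seeing the data, put Notch1, Notch2 and Notch3 at 16.2%, 65.3% and 8.68% in controls and 17.3%, 67.4% and 9.32% with Prune2 siRNA, and Jag1 at 90.4% and 89.2%. Whether replicate numbers pair the libraries was not resolved. Deviations of same-numbered libraries correlated at 0.153, -0.006 and 0.057, and those of differently numbered libraries at -0.208 to 0.15. With the number as a replicate block edgeR called 1490 genes, Jag1 had a log2 fold change of -0.27 (adjusted p = 2.18e-07), and no call among the 9 members changed, while Mfng lost its call (0.0537) and 3 other pathway genes were called lower. Depth limits Jag2, Hey1 and Heyl, with 99 to 176 summed counts a group except 69 for Hey1 with Prune2 siRNA.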
